A study of Bos taurus with 16 samples.

Results

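The livers of 4 high gain-high intake steers were compared with those of 4 low gain-low intake steers. These 8 animals belonged to 16 crossbred steers, sorted by body weight gain and feed intake into 4 groups of 4. The other groups combined high gain with low intake and low gain with high intake. All 16 steers received the same high-concentrate finishing ration with wet distillers grains, with free access to feed, and gain and intake were recorded over 78 days. Each group was picked from the steers farthest from the herd average in its direction, so that the groups hold extremes of a population and not a treatment. No steer carried an engineered allele or received a test agent. Gain and intake differ together between the 2 groups, and their parts in a difference cannot be told apart. The steers were about a year old, sire breeds were mixed, and RNA from 1 lobe of the liver was hybridised to 1 Affymetrix bovine gene array per steer. Values are log2 expression of a transcript cluster, the array's unit for a gene. A bulk sample of liver cannot separate fewer cells of a type from less RNA per cell. The study's methods give a lower RNA integrity for a minority of the samples, and the labels do not say which.

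The liver receives the propionate, acetate and butyrate that rumen microbes make from feed, and it is the main site of glucose production in cattle. It also makes cholesterol, bile acids, most plasma proteins and the binding proteins that carry insulin-like growth factors in blood. Cholesterol synthesis genes share a transcriptional switch, the sterol regulatory element-binding proteins, which are active when cell sterol is low. Metallothioneins are small metal-binding proteins that liver makes in response to zinc and glucocorticoids.

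Position in the deposited table divided the arrays. Its first 8 columns held 1 array of high gain-high intake and 3 of low gain-low intake steers, and its last 8 columns held 3 and 1. Array medians were at most 7.28 in the last 8 columns and at least 7.41 in the first 8. Arrays of 1 group on different sides of this divide correlated at 0.961 to 0.971 (Pearson's r), whereas arrays of different groups on the same side correlated at 0.98 to 0.983 in the first 8 columns and at 0.968 to 0.979 in the last 8. Column position was therefore also fitted as a block, and results are given without and with it. The only high gain-high intake array in the first 8 columns was that of steer 20133015, and the only low gain-low intake array in the last 8 was that of steer 20133403. Columns ran in order of animal number, from 20133015 to 20133181 in the first 8 and from 20133327 to 20133697 in the last 8. What else column position stands for is not in the labels. Steers are listed in the order 20133015, 20133356, 20133390 and 20133412 for high gain-high intake, and 20133101, 20133179, 20133181 and 20133403 for low gain-low intake.

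Few genes separated the groups, and none survived correction. In limma, 286 of 26773 transcript clusters (1.07%) were higher and 453 (1.69%) lower in high gain-high intake than in low gain-low intake steers at an unadjusted p of 0.05 or less, the nominal threshold of the study's methods. With the block there were 487 higher (1.82%) and 274 lower (1.02%), so that the balance of directions turned round. Uniform p-values would give 1338.6 calls, and 739 and 761 were made. After adjustment 0 transcript clusters remained below 0.05 in either fit, with lowest adjusted p of 0.997 without and 1 with the block. "Higher" and "lower" in what follows therefore mean past the unadjusted threshold only. Differences are log2 values, high gain-high intake minus low gain-low intake, with their standard errors from limma. Two-sided exact permutation p-values exchange the 8 steers of both groups, and 0.0286 is the smallest they can give. The median difference over all transcript clusters was -0.07 without and 0.04 with the block, and small differences are read against it.

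Members of a gene list count as measured only with a transcript cluster of exactly 1 gene symbol. Such clusters gave 18444 symbols. Of these, 142 (0.77%) were higher and 276 (1.5%) lower without the block, and 269 (1.46%) were higher and 133 (0.721%) lower with it. Both fits called 151 symbols in the same direction, 36.1% of the 418 called without and 37.6% of the 402 called with the block. They comprised 67 higher (0.363%) and 84 lower (0.455%) symbols. In 169 symbols (0.916%) all 4 high gain-high intake values lay above all 4 low gain-low intake values, and in 214 (1.16%) all lay below. By chance, 1 of the 70 choices of 4 from 8 steers would separate the groups in a given direction. Both shares were below 1 in 70, so full separation was no more frequent than chance gives. Absence of overlap and an exact permutation p of 0.0286 are the same finding. For genes named for their difference it adds no separate evidence. Of 51 genes named here by rule and called without the block, 21 were still called when any 1 of the 8 steers was left out. All fits with 1 steer left out were made without the block.

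**Figure D1:**
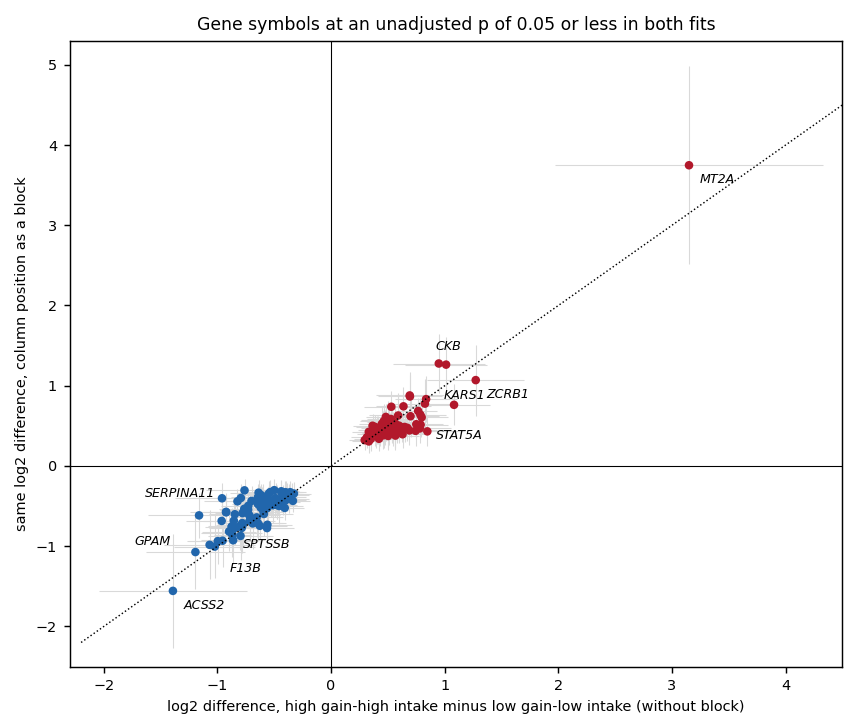
Log2 difference (high gain-high intake minus low gain-low intake) without a block on the horizontal axis and with column position as a block on the vertical axis, for the 151 gene symbols called in both fits in the same direction (red 67 higher, blue 84 lower, grey bars standard error, dotted line equality). MT2A stands alone at 3.15 and 3.75, and ACSS2 and GPAM are the lowest.

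Genes of cholesterol synthesis had lower mean levels in high gain-high intake than in low gain-low intake livers. Of 21 measured members of this list, 17 had a negative difference both without and with the block, when 63.9% and 42.8% of all symbols did. The median difference was -0.60 without and -0.50 with the block, beside -0.08 and 0.03 over all symbols. It was -0.38 after quantile normalization and -0.52 after subtraction of array medians. Single members seldom passed. Without the block 2 were lower and with it 1, beside 1.5% and 0.721% of all symbols, and 0 were higher in either fit.

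HMGCS1 makes the substrate of the rate-limiting step of cholesterol synthesis. Its log2 values were 13.90, 16.41, 15.59 and 17.72 in high gain-high intake steers, against 17.17, 18.45, 16.18 and 17.32 in low gain-low intake steers. The lowest value belonged to high gain-high intake steer 20133015 and the groups overlapped, with a difference of -1.37 ± 0.76 and -1.58 ± 0.82 with the block (exact permutation p = 0.2), called in neither fit. NSDHL acts in the removal of methyl groups from sterol intermediates. Its values were 13.57, 13.91, 12.81 and 14.22 in high gain-high intake steers, against 14.39, 15.54, 14.89 and 13.72 in low gain-low intake steers. Of the low gain-low intake steers only 20133403 lay within the high gain-high intake range, and the gene was lower without the block only, with a difference of -1.01 ± 0.47 and -0.69 ± 0.45 with the block (exact permutation p = 0.114). SC5D acts near the end of the pathway and had 18.98, 19.05, 18.76 and 19.40 in high gain-high intake steers, against 19.49, 20.06, 19.71 and 19.35 in low gain-low intake steers. Only low gain-low intake steer 20133403 reached into the high gain-high intake range, and this gene too was lower without the block only, with a difference of -0.61 ± 0.28 and -0.36 ± 0.25 with the block (exact permutation p = 0.0571). MSMO1, a sterol methyl oxidase, was lower only with the block. It had 16.66, 18.39, 17.22 and 18.64 in high gain-high intake steers, against 17.86, 19.07, 17.95 and 18.54 in low gain-low intake steers. Steer 20133015 was the lowest of the 8 and the groups overlapped, with a difference of -0.63 ± 0.41 and -0.92 ± 0.40 with the block (exact permutation p = 0.343). Without that steer the MSMO1 difference without the block was -0.27, and without steer 20133179 it was -0.39. CYP51A1, the lanosterol demethylase, had 10.69, 13.70, 13.54 and 14.07 in high gain-high intake steers, against 13.66, 14.63, 13.56 and 13.79 in low gain-low intake steers. Only steer 20133015 lay far below the rest, and the difference, called in neither fit, was -0.91 ± 0.60 and -1.20 ± 0.63 with the block (exact permutation p = 0.4). Further members had differences of -0.92 and -1.13 with the block (DHCR7), -0.90 and -0.57 (IDI1), -0.83 and -0.84 (FDFT1) and -0.75 and -0.86 (SQLE), none of them past the threshold. The exceptions were MVD at 0.06 and 0.04, INSIG1 at 0.10 and 0.68, SCAP at 0.15 and 0.35 and PMVK at 0.33 and 0.51. INSIG1 encodes the endoplasmic reticulum anchor that holds the sterol switch inactive, and SCAP its escort. The call on NSDHL was lost in 5 of 8 fits with 1 steer left out (differences of -1.09 to -0.71), and that on SC5D in 6 of 8 (differences of -0.66 to -0.47).

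**Figure D2:**
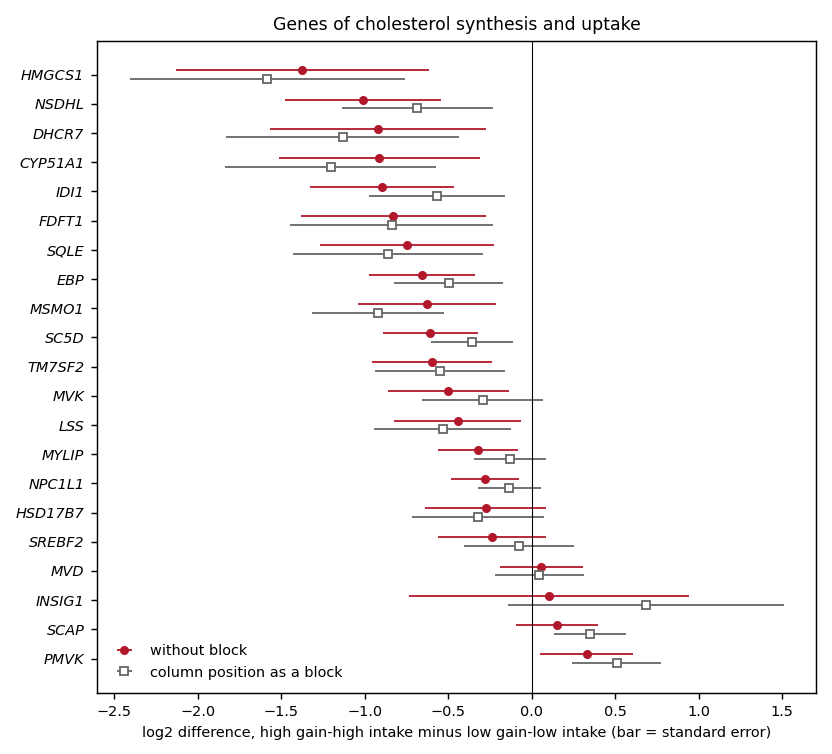
Log2 difference (high gain-high intake minus low gain-low intake, horizontal axis) of the 21 genes of cholesterol synthesis and uptake, without a block (red circles) and with column position as a block (open squares), with standard errors as bars. 17 of the 21 lie below 0 in both fits, most of them with bars that are wide against their distance from 0.

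Averaged over the list, each gene taken as its deviation from its mean over 16 steers, the 4 high gain-high intake steers had -0.47, 0.14, -0.42 and 0.57, against 0.29, 1.15, 0.35 and 0.05 in the low gain-low intake steers. The ranges overlapped, since steer 20133412 stood above 3 low gain-low intake steers. The means of both other groups were on the high gain-high intake side of the midpoint in 13 of 21 genes, beside 6169 of all 18444 symbols. Both lay between the 2 compared groups in 5 of 21 (23.8%), beside 18.8% of all symbols. HMGCS1 averaged 15.90 in high gain-high intake steers. Its mean was 15.78 in steers of high gain but low intake and 14.96 in those of low gain but high intake, and it was 17.28 in low gain-low intake steers.

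All 17 measured genes of propionate and short-chain acid use had a negative difference without the block, and 15 of 17 had one with it. Within the first 8 columns 9 of 17 were negative, and within the last 8 columns 13 of 17. The median was -0.36 without and -0.21 with the block. Of the members 1, ACSS2, was lower in both fits, beside 0.455% of all symbols. ACSS2 activates acetate to acetyl-CoA in the cytosol. Its values were 8.34, 9.28, 8.01 and 10.26 in high gain-high intake steers, against 9.13, 12.23, 10.33 and 9.77 in low gain-low intake steers. Low gain-low intake steer 20133179 was the highest and the groups overlapped, with a difference of -1.39 ± 0.65 and -1.56 ± 0.71 with the block (exact permutation p = 0.171). The call was lost in 5 of 8 fits with 1 steer left out (differences of -1.49 to -0.77). Without steer 20133179 the difference was -0.77. MMUT, the methylmalonyl-CoA mutase that passes propionate carbon into the citric acid cycle, had 16.93, 17.01, 15.89 and 16.41 in high gain-high intake steers, against 17.19, 16.96, 16.99 and 17.17 in low gain-low intake steers. Steer 20133390 was the lowest, and the difference of -0.52 ± 0.27 and -0.36 ± 0.27 with the block (exact permutation p = 0.0857) was not called. PCCA and PCCB, the subunits of propionyl-CoA carboxylase, had -0.19 and -0.37 without the block and -0.13 and -0.23 with it. SLC16A1 and SLC16A7, carriers of short-chain acids and lactate, had -0.25 and -0.63 without and -0.20 and -0.51 with the block. Over the list, the mean deviations were 0.12, 0.01, -0.78 and 0.02 in the high gain-high intake steers, against 0.37, 0.45, 0.31 and -0.06 in the low gain-low intake steers. High gain-high intake steer 20133390 was by far the lowest of all 16. The means of both other groups lay between the compared ones in 9 of these 17 genes (52.9%), beside 18.8% of all symbols.

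**Figure D3:**
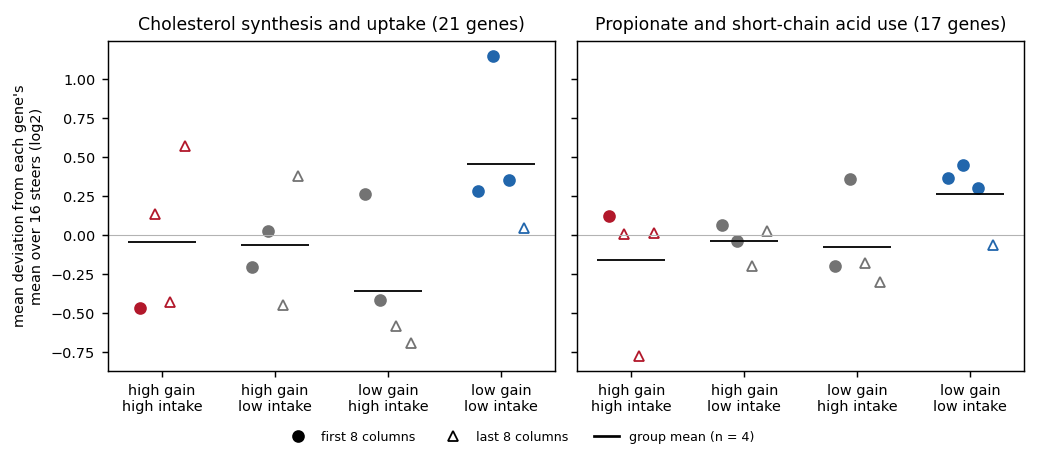
Mean deviation of each steer from the mean over 16 steers (log2, vertical axis) over 21 genes of cholesterol synthesis and uptake and over 17 genes of propionate and short-chain acid use, by group, with group means as lines and the first or last 8 columns as the marker. Low gain-low intake means are the highest in both panels, with overlap between steers, and in the right panel steer 20133390 lies at -0.78.

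In fat synthesis 1 gene of 31 was called, beside 0.455% of all symbols that were lower in both fits. GPAM, the mitochondrial acyltransferase that starts triglyceride synthesis, was lower in both fits. Its values were 10.57, 10.90, 10.28 and 12.04 in high gain-high intake steers, against 11.53, 12.76, 11.69 and 12.59 in low gain-low intake steers. Among high gain-high intake steers only 20133412 lay within the low gain-low intake range, and the difference was -1.19 ± 0.43 and -1.07 ± 0.47 with the block (exact permutation p = 0.0857). Without high gain-high intake steer 20133390 it was -0.97 and no longer called. The desaturases SCD and FADS1 had -1.25 and -1.20 without and -1.28 and -1.09 with the block, and fatty acid synthase (FASN) had -0.89 and -0.68, none past the threshold. LPIN1, a phosphatidate phosphatase, had 0.46 and 1.23. The whole list of 31 had a median of -0.18, and -0.01 with the block, where 17 of 31 were below 0. In fatty acid oxidation, ACAA2, the mitochondrial thiolase of the last step of each cycle, was lower without the block, with a difference of -0.66 ± 0.29 and -0.61 ± 0.31 with the block (exact permutation p = 0.114). This call was lost in 5 of 8 fits with 1 steer left out (differences of -0.63 to -0.46). The other 34 oxidation and ketone body genes were not called in either fit.

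SPTSSB was lower in both fits and separated the groups with a gap. It encodes a small subunit that sets the substrate choice of serine palmitoyltransferase, the entry enzyme of sphingolipid synthesis. Its values were 9.52, 9.54, 9.17 and 9.70 in high gain-high intake steers, against 10.79, 10.13, 10.84 and 10.16 in low gain-low intake steers. No high gain-high intake steer reached a low gain-low intake steer. The difference was -0.997 ± 0.27 and -0.94 ± 0.28 with the block (exact permutation p = 0.0286), a 2-fold lower level. The call without the block held whichever steer was left out. Means were 9.48 ± 0.22 in high gain-high intake and 9.49 ± 0.23 in high gain-low intake steers (SD). They were 10.47 ± 0.60 in low gain-high intake and 10.48 ± 0.39 in low gain-low intake steers (SD). SPTSSB thus ran with gain at either intake, as a description. The parts of gain and intake were not tested.

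Metallothionein 2A had the largest difference among the genes called in both fits. MT2A was 17.37, 15.82, 16.97 and 13.83 in high gain-high intake steers, against 13.21, 13.19, 14.95 and 10.04 in low gain-low intake steers. Only high gain-high intake steer 20133412 lay within the low gain-low intake range, and the lowest value belonged to low gain-low intake steer 20133403. The difference was 3.15 ± 1.18 and 3.75 ± 1.24 with the block (exact permutation p = 0.0571), an 8.88-fold higher level. It was 2.69 without steer 20133015 and 2.21 without steer 20133403, and the call was lost in both cases. MT1A, a second metallothionein, had 16.60, 14.69, 16.41 and 14.39 in high gain-high intake steers, against 13.73, 14.15, 14.22 and 11.77 in low gain-low intake steers. Every high gain-high intake steer lay above every low gain-low intake steer, and the gene was higher with the block only, with a difference of 2.06 ± 0.98 and 2.68 ± 0.98 with the block (exact permutation p = 0.0286). The other groups varied widely, with MT2A means of 15.36 ± 2.06 for high gain but low intake and 15.09 ± 1.88 for low gain but high intake (SD). Of the other zinc genes, the importer SLC39A4 was lower without the block, with a difference of -0.53 ± 0.25 and -0.52 ± 0.27 with the block (exact permutation p = 0.0571), a call lost in 5 of 8 fits with 1 steer left out (differences of -0.56 to -0.34). The metal sensor MTF1 had -0.19 and -0.01 with the block, and MT3 and MT4 -0.16 and 0.12. The list of 24 had a median of -0.16 without and 0.00 with the block. FKBP5, which glucocorticoids induce, had 1.07 and 1.33 and was not called. A part of glucocorticoids or zinc in these differences was not tested.

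Of the growth hormone and insulin-like growth factor axis, STAT5A and IGFBP1 differed. STAT5A transmits signals of the growth hormone and prolactin receptors. Its values were 8.01, 8.50, 8.26 and 8.24 in high gain-high intake steers, against 7.30, 7.08, 7.57 and 7.87 in low gain-low intake steers. All high gain-high intake steers lay above all low gain-low intake steers, with a difference of 0.80 ± 0.23 and 0.61 ± 0.20 with the block (exact permutation p = 0.0286), and the gene was higher in both fits. The call without the block held whichever steer was left out. IGFBP1 encodes a binding protein that liver secretes when insulin is low. Its values were 13.77, 14.30, 12.89 and 12.93 in high gain-high intake steers, against 11.74, 12.69, 12.44 and 10.51 in low gain-low intake steers. The groups did not overlap, and the gene was higher with the block only, with a difference of 1.63 ± 0.77 and 2.06 ± 0.80 with the block (exact permutation p = 0.0286). Its means were 13.47 ± 0.69 in high gain-high intake and 11.84 ± 0.98 in low gain-low intake steers (SD). Both groups with 1 high and 1 low trait averaged more than either, at 15.48 ± 1.73 for high gain but low intake and 14.38 ± 1.30 for low gain but high intake (SD). The remaining 21 genes of the axis were not called. IGF1 had -0.39 without and 0.01 with the block, the carrier proteins IGFBP3 and IGFALS -0.74 and -0.68 without and -0.30 and -0.31 with it, and STAT5B -0.15 and 0.07. Of 29 insulin signaling genes, 0 were called in either fit.

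**Figure D4:**
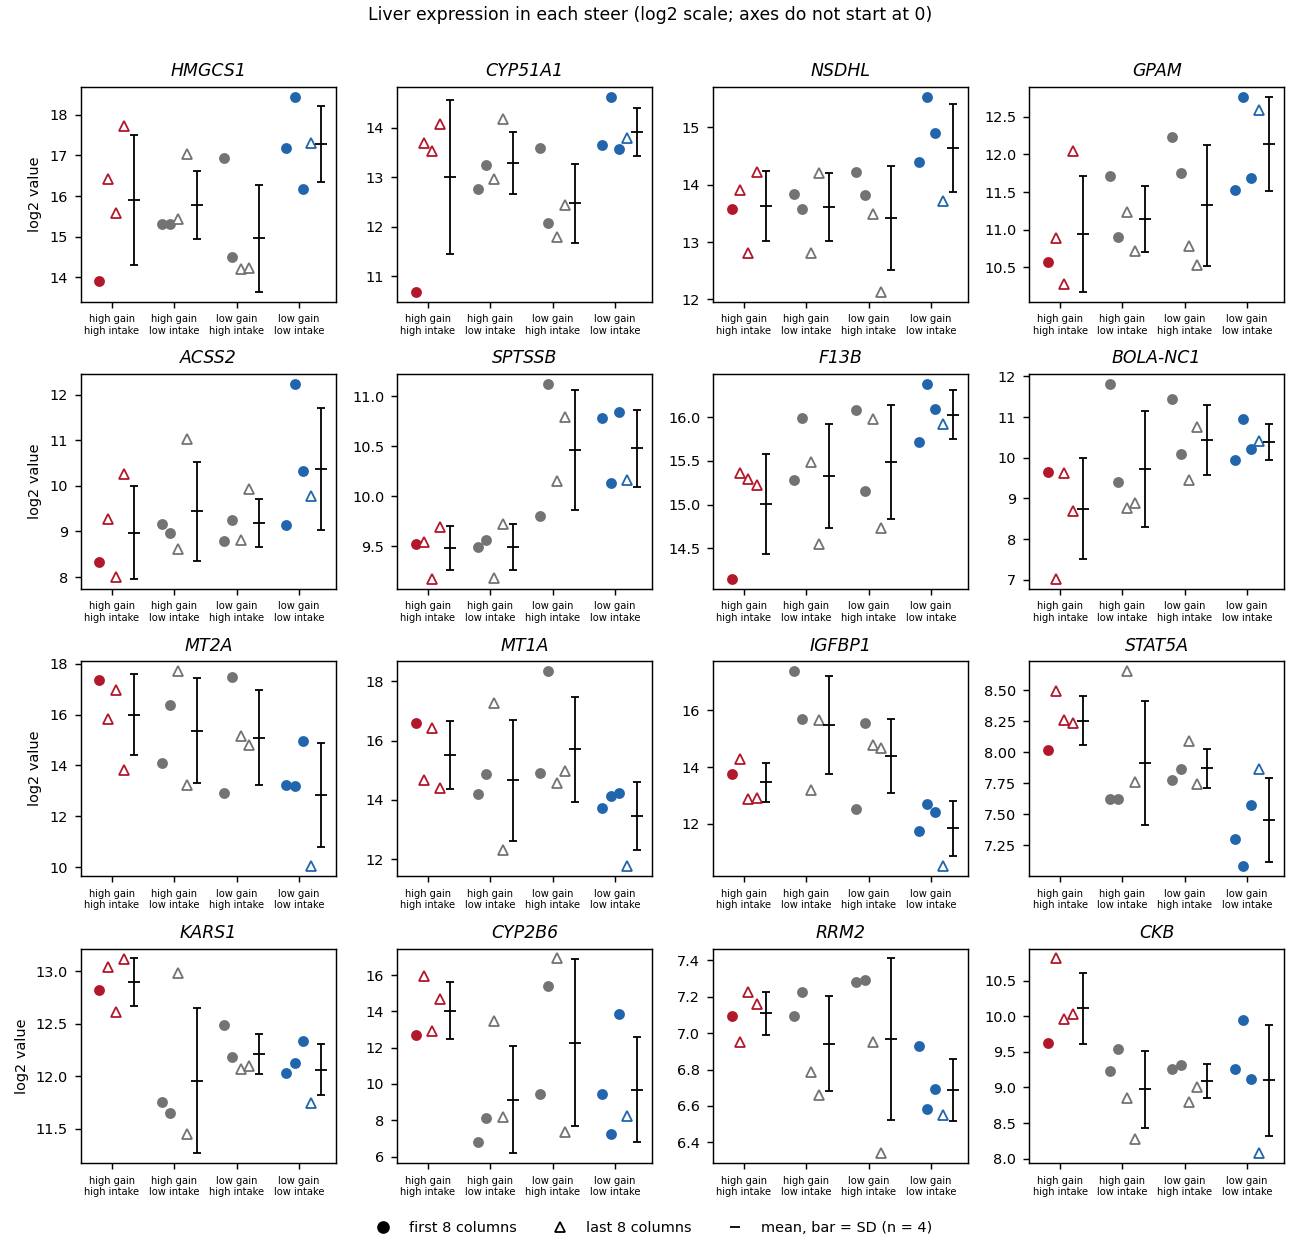
Log2 expression of 16 genes in each of 16 steers by group (high gain-high intake red, low gain-low intake blue, the other groups grey), with filled circles for the first 8 and open triangles for the last 8 columns, and bars for the mean and SD of 4 steers. SPTSSB, STAT5A and KARS1 separate the outer groups without overlap, whereas CYP2B6 and MT2A spread over several log2 units within groups.

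The largest difference in the cytochrome P450 list was that of CYP2B6, a drug-metabolizing enzyme. Its values were 12.67, 15.96, 12.90 and 14.65 in high gain-high intake steers, against 9.45, 7.27, 13.84 and 8.22 in low gain-low intake steers. Low gain-low intake steer 20133181 lay within the high gain-high intake range and the other 3 lay below it. The gene was higher without the block only. The difference was 4.35 ± 1.98 and 3.92 ± 2.17 with the block (exact permutation p = 0.0857), on a spread of 2.90 (SD) among low gain-low intake steers, and the call was lost in 5 of 8 fits with 1 steer left out (differences of 3.54 to 4.27). The other groups averaged 9.14 ± 2.96 (high gain, low intake) and 12.28 ± 4.6 (low gain, high intake), as mean ± SD. CYP20A1, a P450 without an assigned substrate, was higher with the block only, with a difference of 0.17 ± 0.21 and 0.37 ± 0.15 with the block (exact permutation p = 0.371). Without steer 20133015 the difference without the block was 0.04, and without steer 20133403 it was 0.08. The other 23 P450 genes were not called, and the list median was -0.14 without and 0.08 with the block. For bile acids, CYP7A1, the rate-limiting enzyme of their synthesis, had -2.04 without and -2.13 with the block, not past the threshold. KLB, the co-receptor through which gut hormone represses that enzyme, was lower without the block, with a difference of -0.78 ± 0.37 and -0.39 ± 0.28 with the block (exact permutation p = 0.0571). That call was lost in 6 of 8 fits with 1 steer left out (differences of -0.77 to -0.65).

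CSAD and CKB were called in both fits. CSAD decarboxylates cysteine sulfinate on the way to taurine, with which bile acids are conjugated. It had 8.96, 8.98, 8.94 and 9.50 in high gain-high intake steers, against 9.91, 11.17, 10.59 and 8.99 in low gain-low intake steers. Low gain-low intake steer 20133403 lay among the high gain-high intake steers, and the difference was -1.07 ± 0.40 and -0.98 ± 0.43 with the block (exact permutation p = 0.0571). It was -0.73 and not called without steer 20133179, and 0.15 in the last 8 columns, where low gain-low intake has 1 steer. The 50 other genes of the urea cycle and amino acid breakdown were not called. CKB, the brain-type creatine kinase, had 9.63, 10.82, 9.97 and 10.04 in high gain-high intake steers, against 9.26, 9.95, 9.12 and 8.07 in low gain-low intake steers. Only steer 20133179 of the low gain-low intake group lay above the lowest high gain-high intake steer. The difference was 1.01 ± 0.36 and 1.26 ± 0.34 with the block (exact permutation p = 0.0571), and the call was lost without steer 20133356 (0.78) and without steer 20133403 (0.67). The glutamine carrier SLC38A7 and the neutral amino acid exchanger SLC7A8 were lower without the block with differences of -0.49 ± 0.21 and -0.32 ± 0.18 with the block (exact permutation p = 0.0286) for SLC38A7 and -0.34 ± 0.15 and -0.26 ± 0.13 with the block (exact permutation p = 0.0286) for SLC7A8. In both genes the groups did not overlap. With 1 steer left out, the call on SLC38A7 was lost in 5 of 8 (differences of -0.50 to -0.41) and that on SLC7A8 in 5 of 8 (differences of -0.35 to -0.29).

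F13B, INHCA and SERPINA11, which encode secreted plasma proteins, were lower in high gain-high intake livers in both fits. F13B, the carrier subunit of clotting factor XIII, had 14.15, 15.36, 15.29 and 15.22 in high gain-high intake steers, against 15.72, 16.38, 16.09 and 15.92 in low gain-low intake steers. All high gain-high intake steers lay below all low gain-low intake steers, with steer 20133015 far below the others, with a difference of -1.02 ± 0.36 and -1.005 ± 0.39 with the block (exact permutation p = 0.0286). INHCA, an inhibitor of carbonic anhydrase related to transferrin, had 13.56, 14.32, 14.12 and 14.54 in high gain-high intake steers, against 14.74, 15.52, 14.80 and 15.30 in low gain-low intake steers. The groups did not overlap either, with a difference of -0.95 ± 0.30 and -0.93 ± 0.32 with the block (exact permutation p = 0.0286). SERPINA11, a serpin, had 15.32, 14.92, 13.82 and 13.84 in high gain-high intake steers, against 15.70, 15.91, 16.24 and 14.70 in low gain-low intake steers. Steer 20133403 was the only low gain-low intake steer within the high gain-high intake range, and the difference was -1.16 ± 0.45 and -0.62 ± 0.28 with the block (exact permutation p = 0.0857). That call was lost in 3 of 8 fits with 1 steer left out (differences of -0.96 to -0.94). FETUB, a secreted protease inhibitor of the cystatin family, had 11.69, 11.56, 10.08 and 11.79 in high gain-high intake steers, against 12.46, 13.99, 14.30 and 11.70 in low gain-low intake steers. Again only steer 20133403 lay within the high gain-high intake range, and the gene was lower without the block only, with a difference of -1.83 ± 0.72 and -1.07 ± 0.57 with the block (exact permutation p = 0.0571), a call lost in 3 of 8 fits with 1 steer left out (differences of -1.54 to -1.43). Apart from F13B, 41 complement and coagulation genes were not called. Their list had 38 of 42 members below 0 without the block and 25 of 42 with it, with medians of -0.34 and -0.07. Albumin (ALB) had 0.71 without and -0.01 with the block, and haptoglobin (HP) 2.20 and 2.42, neither past the threshold. APOE, the lipoprotein ligand of hepatic receptors, was higher only with the block. It had 16.79, 15.52, 14.50 and 14.69 in high gain-high intake steers, against 15.12, 15.11, 15.10 and 14.37 in low gain-low intake steers. Steer 20133015 was far above its group and the groups overlapped, with a difference of 0.45 ± 0.49 and 1.03 ± 0.32 with the block (exact permutation p = 0.543), and without that steer the difference without the block was -0.02.

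CLEC9A and SCARF1, named for their small p and not from a list, were lower in both fits. CLEC9A is a dendritic cell receptor for dead cells. It had 6.52, 6.32, 7.03 and 6.38 in high gain-high intake steers, against 7.22, 7.78, 7.28 and 7.36 in low gain-low intake steers. The groups did not overlap, with a difference of -0.84 ± 0.21 and -0.77 ± 0.21 with the block (exact permutation p = 0.0286). SCARF1, a scavenger receptor, had 8.03, 7.40, 7.53 and 7.73 in high gain-high intake steers, against 8.19, 8.57, 8.60 and 8.26 in low gain-low intake steers. Here too no steer crossed over, with a difference of -0.73 ± 0.20 and -0.59 ± 0.18 with the block (exact permutation p = 0.0286). For both genes the call without the block held whichever steer was left out. The class I gene BOLA-NC1 had 9.66, 7.02, 9.63 and 8.69 in high gain-high intake steers, against 9.93, 10.96, 10.22 and 10.42 in low gain-low intake steers. Its groups were apart, with steer 20133356 lowest, and it was lower without the block only, with a difference of -1.64 ± 0.66 and -1.16 ± 0.65 with the block (exact permutation p = 0.0286). Without that steer the difference was -1.06, and without low gain-low intake steer 20133179 it was -1.44, neither of them called. Class I genes share sequence, so that probes may read several of them. IFITM3, an antiviral membrane protein, was lower without the block, with a difference of -0.66 ± 0.31 and -0.42 ± 0.28 with the block (exact permutation p = 0.143), a call lost in 6 of 8 fits with 1 steer left out (differences of -0.68 to -0.47). IFI6 had -2.32 and -2.33 and was not called. Of 35 interferon-stimulated genes, 31 were below 0 without and 12 with the block.

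KARS1, ZCRB1, RPUSD4, MAGOHB and ERI1 were called in both fits. They were named for the size or the p of their difference, and belong to no list used here. KARS1, which charges tRNA with lysine, had 12.82, 13.04, 12.62 and 13.11 in high gain-high intake steers, against 12.03, 12.13, 12.34 and 11.75 in low gain-low intake steers. The groups lay apart, with a difference of 0.84 ± 0.27 and 0.83 ± 0.29 with the block (exact permutation p = 0.0286), and the call without the block held whichever steer was left out. Its mean of 12.90 ± 0.225 in high gain-high intake steers stood above all others, with 11.96 ± 0.69 for high gain but low intake, 12.21 ± 0.19 for low gain but high intake and 12.06 ± 0.24 in low gain-low intake steers (SD). ZCRB1, a protein of the minor spliceosome, had 11.50, 11.99, 12.80 and 12.77 in high gain-high intake steers, against 10.87, 10.71, 11.35 and 11.04 in low gain-low intake steers. It was higher without overlap, with a difference of 1.27 ± 0.42 and 1.07 ± 0.44 with the block (exact permutation p = 0.0286). RPUSD4, which modifies mitochondrial ribosomal RNA, had 7.84, 8.43, 8.17 and 8.08 in high gain-high intake steers, against 7.21, 7.09, 7.18 and 7.88 in low gain-low intake steers. Only low gain-low intake steer 20133403 lay within the high gain-high intake range, with a difference of 0.79 ± 0.24 and 0.51 ± 0.15 with the block (exact permutation p = 0.0571). MAGOHB, of the exon junction complex, was lower, with a difference of -0.88 ± 0.24 and -0.76 ± 0.24 with the block (exact permutation p = 0.0571), with steer 20133403 alone at the level of the high gain-high intake group. ERI1, an exonuclease that trims histone messages and ribosomal RNA, was lower, with a difference of -0.96 ± 0.41 and -0.40 ± 0.18 with the block (exact permutation p = 0.0571). That call was lost in 6 of 8 fits with 1 steer left out (differences of -0.94 to -0.79). The ribosomal protein genes turned with the block. Of 65, 38 were below 0 without it and 55 above 0 with it, with medians of -0.10 and 0.19, and RPL36 alone was called, higher with the block only, with a difference of 0.26 ± 0.29 and 0.54 ± 0.24 with the block (exact permutation p = 0.429). Without steer 20133403 the difference without the block was 0.09, and without steer 20133356 it was 0.13. A second transcript cluster of RPL36 had 0.14 without and 0.27 with the block.

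Chaperone genes gave small differences. DNAJC22, a membrane co-chaperone, had 9.84, 10.13, 9.77 and 9.86 in high gain-high intake steers, against 9.57, 9.50, 9.22 and 9.27 in low gain-low intake steers. All high gain-high intake steers lay above all low gain-low intake steers, with a difference of 0.51 ± 0.19 and 0.52 ± 0.20 with the block (exact permutation p = 0.0286), called in both fits. Without steer 20133356 it was 0.43 and not called without the block. DNAJC8, a co-chaperone tied to splicing, was higher without the block, with a difference of 0.49 ± 0.20 and 0.44 ± 0.21 with the block (exact permutation p = 0.0857), and HSPA2 was lower without it, with a difference of -0.57 ± 0.26 and -0.32 ± 0.21 with the block (exact permutation p = 0.143). HSPB6, a small heat shock protein, was higher with the block, with a difference of 0.31 ± 0.19 and 0.41 ± 0.19 with the block (exact permutation p = 0.0571). In the endoplasmic reticulum, CANX, the lectin chaperone calnexin, was lower without the block, with a difference of -0.78 ± 0.34 and -0.56 ± 0.33 with the block (exact permutation p = 0.143). It was 0.21 within the first 8 columns and -1.19 within the last 8. With 1 steer left out, the call on DNAJC8 was lost in 5 of 8 fits (differences of 0.38 to 0.47), that on HSPA2 in 5 of 8 (differences of -0.57 to -0.41) and that on CANX in 6 of 8 (differences of -0.78 to -0.45). STXBP6, a SNARE-binding protein that limits vesicle fusion, was lower in both fits. It had 10.65, 10.39, 9.72 and 10.43 in high gain-high intake steers, against 11.15, 11.28, 10.69 and 11.49 in low gain-low intake steers. Its groups did not overlap, with a difference of -0.86 ± 0.27 and -0.68 ± 0.26 with the block (exact permutation p = 0.0286). The proteasome subunits PSME4 and PSMC3 were higher with the block only, at 0.38 and 0.39, against 0.17 and 0.13 without it, and the differences without it were -0.01 and -0.06 when steer 20133403 was left out.

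Cell division genes were above 0 in 33 of 81 members without and in 58 of 81 with the block, with medians of -0.03 and 0.10. The fit with the block called 4 of the 81 higher, beside 1.46% of all symbols, and the fit without it 1 of 81, beside 0.77%. The gene called without the block was AURKB, a mitotic kinase, at 0.625 without and 0.27 with the block. RRM2, the regulatory subunit of ribonucleotide reductase, had 7.09, 6.95, 7.23 and 7.16 in high gain-high intake steers, against 6.93, 6.58, 6.69 and 6.55 in low gain-low intake steers. The groups did not overlap, if narrowly, with a difference of 0.42 ± 0.21 and 0.59 ± 0.18 with the block (exact permutation p = 0.0286). The spindle motor KIF11, the replication licensing factor CDC6 and the anaphase activator CDC20 had 0.48, 0.44 and 0.45 with the block and 0.30, 0.33 and 0.34 without it. Their levels were low on the array, with means of 6.415, 6.017 and 6.55 in high gain-high intake steers. In low gain-low intake steers the means were 6.11, 5.689 and 6.207. The median level of the whole list was 6.75, beside 7.42 over all symbols. Without steer 20133015 the KIF11 difference without the block was 0.14. The growth-induced transcription factor MYC was higher without the block, with 7.75, 8.80, 7.23 and 6.55 in high gain-high intake steers, against 6.78, 6.41, 6.77 and 6.18 in low gain-low intake steers. High gain-high intake steer 20133412 lay within the low gain-low intake range, with a difference of 1.05 ± 0.47 and 1.05 ± 0.51 with the block (exact permutation p = 0.0857), a call lost in 4 of 8 fits with 1 steer left out (differences of 0.64 to 1.01). Immediate early genes as a list were above 0 in 22 of 34 members in both fits, with medians of 0.17 and 0.16. Of the liver transcription factors, ONECUT1 and the thyroid hormone receptor THRB were lower without the block, with differences of -1.01 ± 0.44 and -0.64 ± 0.40 with the block (exact permutation p = 0.0571) for ONECUT1 and -0.69 ± 0.27 and -0.51 ± 0.26 with the block (exact permutation p = 0.114) for THRB. The call on ONECUT1 was lost in 6 of 8 fits with 1 steer left out (differences of -1.05 to -0.86), and that on THRB in 3 of 8 (differences of -0.63 to -0.56).

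Of the 10 genes with the smallest p in the fit without the block, CLEC9A, SCARF1, SPTSSB and MAGOHB are given above. OR4C12DP, an olfactory receptor pseudogene, had 6.65, 7.04, 7.02 and 6.84 in high gain-high intake steers, against 8.07, 7.49, 7.82 and 7.64 in low gain-low intake steers. The groups did not overlap, with a difference of -0.87 ± 0.17 and -0.86 ± 0.17 with the block (exact permutation p = 0.0286). PCSK4, a proprotein convertase known from testis, was higher, with a difference of 0.57 ± 0.15 and 0.50 ± 0.14 with the block (exact permutation p = 0.0286), and SEPTIN1, a septin known from lymphocytes, with a difference of 0.52 ± 0.15 and 0.52 ± 0.14 with the block (exact permutation p = 0.0286). The olfactory receptor OR10D1M was lower, with a difference of -0.90 ± 0.23 and -0.82 ± 0.24 with the block (exact permutation p = 0.0286), the zinc finger gene ZNF511, with a difference of -0.85 ± 0.23 and -0.60 ± 0.17 with the block (exact permutation p = 0.0286), and LOC781410 was higher, with a difference of 0.77 ± 0.17 and 0.69 ± 0.16 with the block (exact permutation p = 0.0286). Each of the 6 genes from OR4C12DP to LOC781410 was called in both fits, and without the block whichever steer was left out. Further genes were named for the size of their difference. The olfactory receptor symbol OR4C12 was lower, with a difference of -0.96 ± 0.31 and -0.69 ± 0.27 with the block (exact permutation p = 0.0286), and LOC783146 was higher, with a difference of 0.83 ± 0.28 and 0.78 ± 0.30 with the block (exact permutation p = 0.0571). Both were called in both fits, and without the block whichever steer was left out. BRMS1L, of a histone deacetylase complex, was higher, with a difference of 1.08 ± 0.32 and 0.76 ± 0.25 with the block (exact permutation p = 0.0286), and PAG18, a placental glycoprotein gene, with a difference of 0.85 ± 0.33 and 0.43 ± 0.19 with the block (exact permutation p = 0.0571). These and the next 2 were called in both fits. MIR2284C was higher, with a difference of 0.95 ± 0.41 and 1.28 ± 0.37 with the block (exact permutation p = 0.0286), and CMC1, which serves cytochrome oxidase assembly, was lower, with a difference of -0.92 ± 0.29 and -0.57 ± 0.18 with the block (exact permutation p = 0.0857). With 1 steer left out, the call on MIR2284C was lost in 3 of 8 fits (differences of 0.59 to 0.91) and that on PAG18 in 2 of 8 (differences of 0.62 to 0.71). The calls on BRMS1L and CMC1 without the block held. PCSK4, LOC781410, OR10D1M and PAG18 had means near or below the lower quartiles of the arrays, which were 6.09 to 6.38. Their means were 6.28, 6.28, 5.37 and 6.44 in high gain-high intake steers, against 5.705, 5.52, 6.27 and 5.59 in low gain-low intake steers. Expression of these genes above background was not tested.

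Across the lists, most medians were below 0 without the block and near 0 with it, and 26 of 45 changed sign. Cholesterol synthesis and short-chain acid use kept the lowest medians in both fits. Mitochondrial respiratory chain genes had 64 of 77 members below 0 without and 37 with the block, and 1 was called. NDUFA2, a complex I subunit, was lower with the block only, with a difference of -0.33 ± 0.35 and -0.65 ± 0.30 with the block (exact permutation p = 0.343). Without steer 20133015 the difference in the fit without the block was -0.16, and without steer 20133403 it was -0.205. GPX8, a peroxidase of the endoplasmic reticulum, was higher with the block only, with a difference of 0.82 ± 0.45 and 1.13 ± 0.43 with the block (exact permutation p = 0.171). Without steer 20133015, at 10.05 the highest of its group, the difference without the block was 0.415. Gluconeogenesis, glycolysis, circadian clock, conjugation and collagen genes had 0 called members in both fits.

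**Figure D5:**
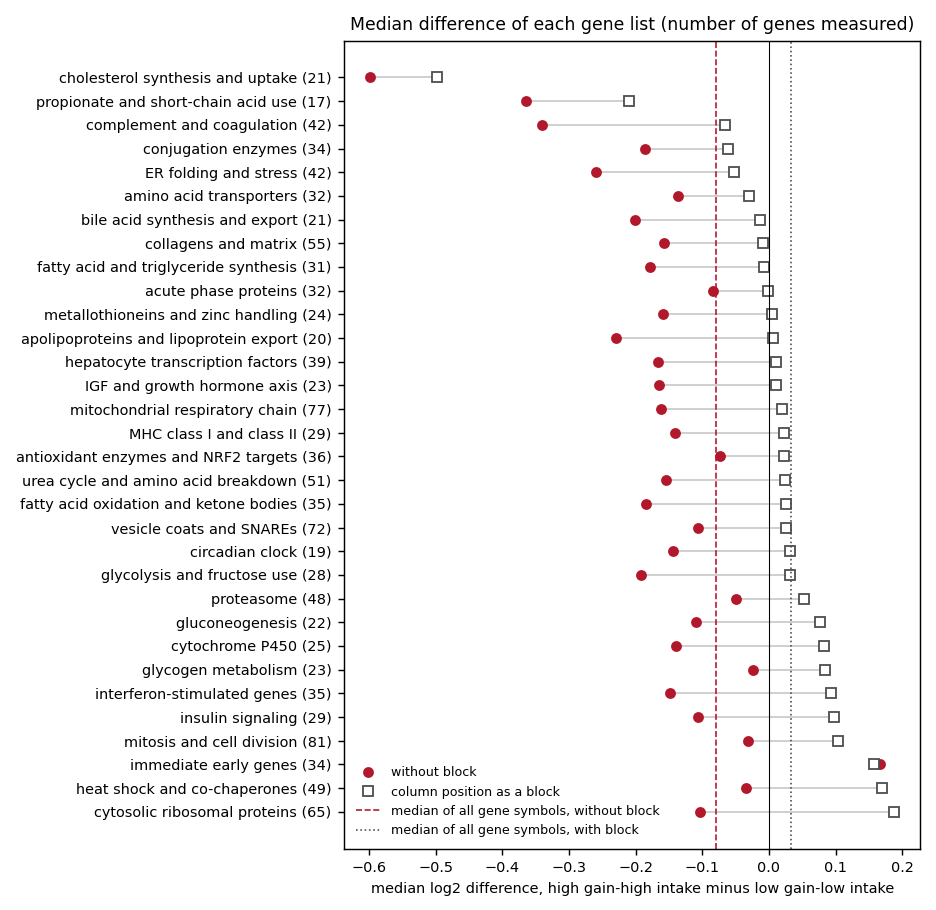
Median log2 difference (high gain-high intake minus low gain-low intake, horizontal axis) of 32 gene lists without a block (red circles) and with column position as a block (open squares), with dashed and dotted lines at the medians of all symbols, -0.08 and 0.03. Cholesterol synthesis, at -0.60 and -0.50, lies farthest from these lines, and most lists move to the right with the block.

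The livers of both groups expressed hepatocyte markers at levels high on the array, with a median level of 20.6 over 17 genes. Their median difference was -0.13 without and -0.01 with the block, and 0 were called. For Kupffer cell markers, 14 of 17 were below 0 without and 8 with the block, with medians of -0.24 and 0.02, and list means of -1.02 to 0.73 in high gain-high intake and -0.17 to 0.67 in low gain-low intake steers. Endothelial, stellate, lymphocyte, neutrophil, erythroid and smooth muscle markers had 0 called members in either fit. Of 11 bile duct markers, 5 were below 0 without and 6 with the block, with medians of 0.14 and -0.07, and 1 was called. This was CLDN4, a tight junction gene, which was lower in both fits. It had 5.90, 6.29, 6.21 and 6.21 in high gain-high intake steers, against 6.79, 6.94, 6.47 and 6.49 in low gain-low intake steers. These values are low on the arrays, whose lower quartiles were 6.09 to 6.38. The groups did not overlap, with a difference of -0.52 ± 0.19 and -0.44 ± 0.19 with the block (exact permutation p = 0.0286). Without steer 20133015 it was -0.44 and without steer 20133179 -0.43, and the call was lost in both cases. The ducts' defining keratins KRT7 and KRT19 had -0.15 and 0.23 without and 0.14 and 0.01 with the block. The part of cell composition in the results above was not tested.

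Of the 12 genes that the study took to qPCR, 11 had a transcript cluster with exactly 1 gene symbol, and 2 were called in 1 fit each. The remaining gene, TAP2, which the study did measure on these arrays, is therefore not reported. These lists were chosen on the same arrays and are no independent evidence. IGFBP1 is given above. PPP1CA, a phosphatase catalytic subunit, was lower without the block, with a difference of -0.35 ± 0.16 and -0.28 ± 0.15 with the block (exact permutation p = 0.0286), without overlap between the groups. The call was lost in 5 of 8 fits with 1 steer left out (differences of -0.36 to -0.27). A second transcript cluster of PPP1CA had -0.15 and 0.20. The study's own qPCR of PPP1CA, reported for the same 2 groups, was also lower in high gain-high intake steers but did not pass its threshold. Of 14 measured genes in the study's ubiquitination list DNAJC22 alone was called, and of 4 in its chemokine list CAMK4 alone, lower without the block, with a difference of -0.48 ± 0.23 and -0.47 ± 0.24 with the block (exact permutation p = 0.0857), a call lost in 7 of 8 fits with 1 steer left out (differences of -0.52 to -0.38).

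The groups with 1 high and 1 low trait show how the called genes ran across the design, as a description. Both of their means lay between the compared groups in 44 of the 67 symbols higher in both fits (65.7%) and in 62 of the 84 lower symbols (73.8%), beside 18.8% of all symbols. The symbols were chosen for their difference between the outer groups, and this share depends on that choice.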

How the data were processed

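Liver RNA of 16 steers was measured on 1 Affymetrix bovine gene array each. The deposited log2 values were computed by the authors in Affymetrix Expression Console with RMA after a correction for GC content and a Signal Space Transformation. The submitters' processing notes also name Transcriptome Analysis Console. The sources used here give neither software versions nor a genome build. The number of arrays limits the precision. Groups came from the phenotype labels. Linear models with 1 mean per group were fitted to all 16 arrays and 26773 transcript clusters with limma 3.58.1 in R 4.3.3, without and with column position (first or last 8 columns) as a block, and p-values were adjusted by Benjamini and Hochberg. Adjusted p-values of single named genes were 0.997 without and 1 with the block. The fit was tested on simulated data. By the study's methods, each of 4 harvest days took 1 steer of each group, but the labels do not name the day. Harvest day was therefore not fitted. The p-values measure the spread between steers of a group, which includes any spread between days. Of the clusters, 18790 had 1 gene symbol, 385 several and 7598 none; for symbols with several clusters the one with the highest mean was used. Named genes were the 10 with the smallest p, the 10 largest higher and 10 largest lower called in both fits, up to 4 called members of each of 45 lists and the qPCR genes. The members and lists were chosen with earlier results of these data known. Alternatives were the block, the 8 arrays alone, quantile normalization, subtraction of array medians, omission of low clusters, ordinary and robust variances, and omission of each steer. No sequence or coordinate is given.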

Additional observations from a re-analysis of the deposited data

Results flagged for a closer look

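Among named and qPCR genes, 152 groups of 4 steers were checked for 1 steer whose gap to the nearest other as a share of the group's range exceeded Dixon's limit, which chance exceeds in about 1 of 20 groups. This picked out 13. Low gain-low intake steer 20133403, the only one of its group in the last 8 columns, stood apart at 7.88 for RPUSD4, where the other 3 reached at most 7.21, at 6.08 for ERI1 (others from 7.35), 14.37 for APOE (others from 15.10), 9.03 for PSME4 (others from 9.71), 8.40 for THRB (others from 9.22) and 10.82 for AGPAT3 (others from 11.18). High gain-high intake steer 20133015, the only one of its group in the first 8 columns, stood apart at 14.15 for F13B (others from 15.22) and at 10.05 for GPX8 (others up to 8.56). High gain-high intake steer 20133390 lay at 6.54 for ARF5 (others from 6.79) and 10.08 for FETUB (others from 11.56). High gain-high intake steer 20133412 lay at 9.50 for CSAD (others up to 8.98) and steer 20133356 at 7.41 for IFITM3 (others up to 6.61). Low gain-low intake steer 20133181 lay at 16.35 for CANX (others from 16.81). The part of the column position in these values was not tested.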

How the results depend on the processing

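The limits are 4 steers a group, breed shares that differ between the groups, and an uneven spread over the table columns. No call passed correction in any setting, with lowest adjusted p-values of 0.249 to 1. Of 739 calls (286 higher, 453 lower) without the block, 318 were among the 761 with it. With the block there were 487 higher and 274 lower. With the block and only the 8 arrays there were 1303 (890 higher, 413 lower), and with the 8 arrays alone 1029 (402 higher, 627 lower). Subtracting array medians gave 439 higher and 358 lower, and quantile normalization 421 and 398. Leaving out low transcript clusters gave 260 of 13387 (87 higher, 173 lower), and 42 of the 67 named genes were kept in that fit. Leaving out 1 steer at a time gave 471 to 1810 calls, 195 to 433 higher and 239 to 1419 lower. The highest counts came when steer 20133403 of the low gain-low intake group (1810) or steer 20133015 of the high gain-high intake group (1586) was left out. Other counts were 477 without steer 20133179 and 471 without steer 20133356. Of 67 named genes, 32 stayed on the same side of the threshold with the block, 19 lost it, 16 gained it and 0 changed sign. Genes were named by their calls in these 2 fits, so these counts partly follow from the naming. Over all symbols, 151 of the 418 called without the block were called in both fits. With 1 steer left out, APOE ranged from -0.021 (without steer 20133015) to 0.742, PSME4 from -0.015 to 0.241 and PSMC3 from -0.063 to 0.238, the last 2 lowest without steer 20133403. The cause was not tested. No paired analysis was possible because the labels do not say which steers were harvested on the same day.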

Other observations

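Olfactory receptor symbols, 806 of 18444 (4.37%), made up 17 of the 151 symbols called in both fits (11.26%), 7 higher and 10 lower, a count looked at after its values were seen. Their median level was 5.78 beside 7.42 over all symbols, so that most lie at the low end of the array's scale. Their median difference was -0.04 without and -0.01 with the block. MicroRNA symbols were 7 of the 151, against 554 of all symbols.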
